A study of Homo sapiens with 18 samples.

Results

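Genes of Wnt signalling and of the colon stem cell programme were followed across 9 clones of HCT116, an established human colorectal carcinoma line. The 10 genes were chosen by name: LGR5, AXIN2, ASCL2, LEF1, TCF7, TCF7L2, NKD1, DKK1, RNF43 and MYC. Every probe set annotated to 1 of them was used, which gave 24 probe sets of 9 genes among the 54675 probe sets of the array. TCF7, a DNA-binding partner of beta-catenin, was named by none of the annotated probe sets and was not analysed here. Probe sets entered the tests if some clone had both of its arrays at or above the median of the array. By this filter 14 probe sets of 6 genes were tested, among 29070 tested probe sets in all.

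In the gut, Wnt ligands bind Frizzled receptors and LRP co-receptors and stop a destruction complex of APC, AXIN and kinases from degrading beta-catenin. Beta-catenin then enters the nucleus and activates target genes with TCF and LEF proteins, a programme that maintains the stem cells at the crypt base. Several targets feed back on the pathway, AXIN2 in the destruction complex, NKD1 at Dishevelled, DKK1 at the co-receptor and RNF43 at the Frizzled receptors. HCT116 is known to carry an activating mutation in the gene for beta-catenin, and all 9 clones derive from that line.

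The clones carried mutations of IDH1 or IDH2, the isocitrate dehydrogenases of the cytosol and of mitochondria, whose mutant forms make 2-hydroxyglutarate. Clones 2C11 and 2H1 were IDH1 R132H/+, 3A4 was IDH1 R132C/+, 8G12 and 17H5 were IDH2 R140Q/+, and 47C2 and 45G3 were IDH2 R172K/+. The wild-type clones were 16F8, which was targeted with IDH1 R132C/+ but by its label does not express the mutant allele, and the untargeted parental cells. All cells grew for 6 days with no treatment, and each clone was 1 clone, measured on 2 arrays that the labels call biological replicates. The labels do not say that replicates were separate cultures, so the p-values measure the spread between these arrays, which may be technical. Tests between clones compare clones and not genotypes.

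The values were MAS5 signals, a linear scale on which each array had been brought to 1 common level, and array medians lay between 12.3 and 15.6. Log2 differences were computed on log2 of the signal plus 2.2. Replicate arrays of a clone correlated at 0.986 to 0.994, and arrays of different clones at 0.952 to 0.989. Poly-A spike-in controls were high on 4 arrays (replicate 1 of 2C11, 16F8 and parental, and replicate 2 of 8G12), with mean log2 signals of 5.83 to 5.98 against 4.81 to 5.54 on the other arrays. EPCAM, KRT8, KRT18, KRT19, CDH1, CDX2 and ELF3, markers of colon epithelium, lay above the median on all 18 arrays, while VIL1, CDH17 and LGALS4 of the same list lay below it on all 18 and did not pass a signal of 6.6. Of 15 measured fibroblast, endothelial and blood cell markers, COL1A1 alone lay above the median on all 18 arrays, with signals of 187 to 358.5. Their summed signal ran from 226.6 to 342.3 on the arrays of mutant clones and from 285 to 402.3 on those of wild-type clones, and its part in the results below was not tested.

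Among the 9 clones, 5 of the 14 tested probe sets differed at an adjusted p under 0.05 by limma's moderated F test, against 42.8% of all tested probe sets. They belonged to AXIN2, RNF43, DKK1, MYC and TCF7L2. The share was close to the background, so differing between clones did not set these genes apart. The replicate pooled SD of the log2 values was 0.22 for AXIN2, 0.07 for RNF43, 0.11 for DKK1 and 0.19 for MYC, against ranges of the clone means of 2.43, 2.00, 0.93 and 0.82.

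**Figure D1:**
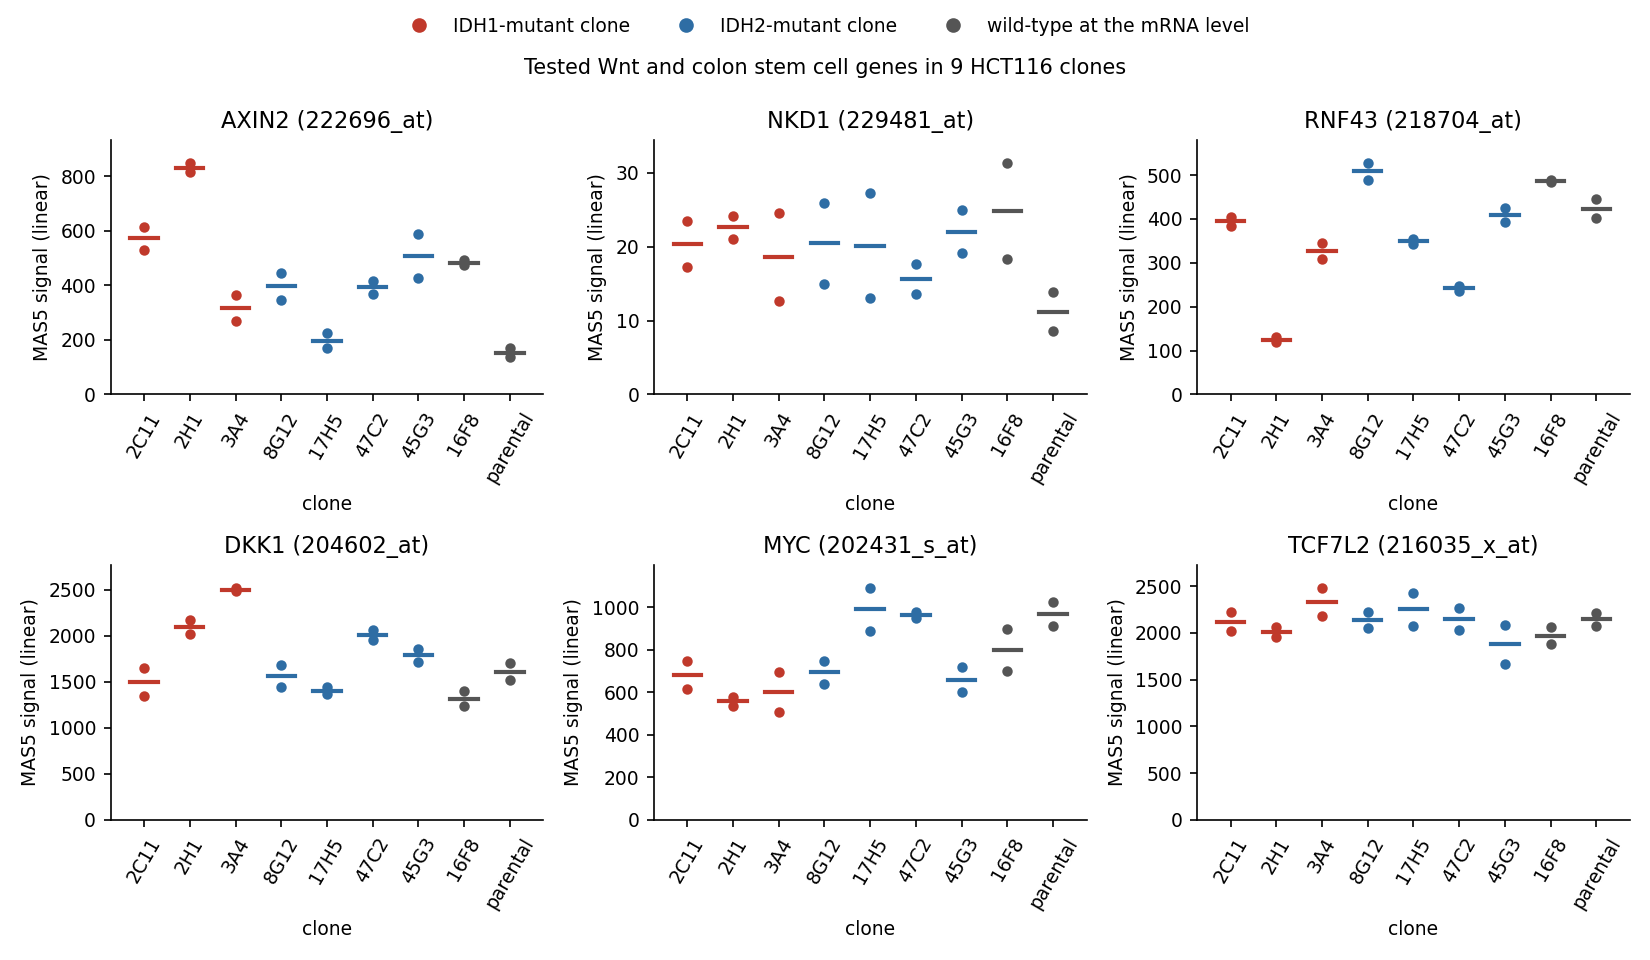
MAS5 signal (linear y axis from 0) of the probe set that stands for each of the 6 tested genes, in 9 clones (x axis); points are the 2 arrays of a clone, bars their mean, and colours mark IDH1-mutant, IDH2-mutant and wild-type clones. AXIN2 was lowest in parental cells and highest in 2H1, and RNF43 was lowest in 2H1 at 120.5 and 130.

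AXIN2, the scaffold of the destruction complex that is itself a target of beta-catenin, was read best by probe set 222696_at. Its signal was 615.7 and 529.4 in 2C11, 848.4 and 815.8 in 2H1, 268.8 and 365.7 in 3A4, 345.7 and 446.2 in 8G12, 223.6 and 169.2 in 17H5, 416.7 and 368.4 in 47C2, 589.5 and 427 in 45G3, 492.2 and 473.7 in 16F8, and 138.5 and 168.9 in parental cells. Both parental arrays lay below every array of the other 8 clones, by little in 17H5, where the lower array reached 169.2. Clone 2H1 stood above all others, and 2C11, 45G3 and 16F8 overlapped or nearly met below it.

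AXIN2 rose against parental cells in 7 of the 8 derived clones. The 7 log2 differences ran from 1.03 ± 0.18 (SE) in 3A4, adjusted p = 0.000419, to 2.43 ± 0.18 in 2H1, adjusted p = 5.4e-08, or 2.04-fold to 5.38-fold (limma, 2 arrays per clone). The wild-type clone 16F8 was among them, at 1.64 ± 0.18 with an adjusted p of 1.01e-05. In 17H5 the log2 difference was 0.34 with a 95% interval of -0.04 to 0.73 and an adjusted p of 0.266. A call higher than parental in at least 7 of 8 clones was made for 3.56% of all tested probe sets. All 8 comparisons share the same 2 parental arrays, so they are not independent of one another. Each array measured a culture in bulk, so fewer cells with a transcript and less of it per cell cannot be told apart.

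With 16F8 as the wild-type clone, AXIN2 was higher in 2H1, at a log2 difference of 0.78 ± 0.18 (SE, adjusted p = 0.00866, limma), and lower in 3A4 and 17H5, at -0.62 (adjusted p = 0.0216) and -1.30 (adjusted p = 0.00035). For the other 4 mutant clones the differences from 16F8 lay between -0.30 and 0.24 and did not pass the test, with 95% intervals reaching from -0.68 to 0.63. Without replicate 1 of 2H1 the call in 2H1 was lost, at 0.75 with an adjusted p of 0.0712. The call in 3A4 was lost without its replicate 1, at -0.40 with an adjusted p of 0.229, and without replicate 1 or 2 of 16F8, at -0.59 and -0.65 with adjusted p of 0.0979 and 0.0616.

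A second AXIN2 probe set, 224176_s_at, was much dimmer, with signals of 5.3 to 24.3, and lay at or above the median on 7 arrays. It passed the filter through 2C11 alone, at 14.3 and 22.5, while both parental arrays lay below the median, at 7.2 and 5.3. It was called higher than in parental cells in 2C11 and in 2H1, where it gave 12.1 and 24.3, but with parental below the median no size is read from these calls. The call in 2C11 was lost without its replicate 2 (adjusted p = 0.153), that in 2H1 without its replicate 2 (adjusted p = 0.216), and both without replicate 2 of parental (adjusted p = 0.107 and 0.0997, limma). The other 6 clones did not pass the test. Over the 9 clone means it correlated with 222696_at at 0.841, a description over clones measured on shared arrays. The other AXIN2 probe sets, 222695_s_at and 224498_x_at, stayed below the median on all 18 arrays.

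NKD1, which binds Dishevelled and dampens Wnt signalling, was dim. Its probe set 232203_at gave 17.3 and 12.4 in 2C11, 20.8 and 32.5 in 2H1, 12.5 and 11.5 in 3A4, 18.8 and 22.8 in 8G12, 18.4 and 20.9 in 17H5, 17.7 and 26.1 in 47C2, 25.4 and 15.1 in 45G3, 20.8 and 16.7 in 16F8, and 13.9 and 5 in parental cells. The lower parental array gave the lowest value of all, and the higher one lay within the values of 2C11 and above both of 3A4. The probe set was called higher than in parental cells in 2H1, 8G12, 47C2 and 45G3, with log2 differences of 1.39, 1.09, 1.14 and 1.02. These sizes are uncertain, because the parental array at 5 lay below its array's median of 12.9. All 4 calls were lost without replicate 2 of parental, the array at 5, at 0.81, 0.51, 0.56 and 0.44 with adjusted p of 0.13, 0.479, 0.333 and 0.446 (limma). Over 27 alternatives, among them leaving out arrays of the clones themselves, the calls in 2H1, 8G12, 47C2 and 45G3 were lost in 2, 20, 3 and 10.

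The brighter NKD1 probe set, 229481_at, ran from 8.6 to 31.3, also lowest on average in parental cells, and its 8 differences from parental, 0.43 to 1.00 with an SE of 0.37, did not pass the test. The NKD1 calls therefore rest on 1 of its 3 probe sets. Both tested NKD1 probe sets differed among the clones by less than the test's threshold, with adjusted p of 0.0596 and 0.366 in the F test. Probe set 1553115_at lay below the median on all 18 arrays.

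RNF43, the ubiquitin ligase that removes Frizzled receptors from the cell surface, had 1 probe set, 218704_at. Its signal was 404.9 and 384.7 in 2C11, 120.5 and 130 in 2H1, 309.1 and 345.4 in 3A4, 489.8 and 527.3 in 8G12, 355.2 and 343 in 17H5, 235.6 and 248 in 47C2, 393.7 and 424.4 in 45G3, 485.2 and 488.6 in 16F8, and 445.4 and 401.5 in parental cells. Clone 2H1 lay far below all other clones and 47C2 was next. The values of 2C11, 45G3 and parental cells overlapped or touched.

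RNF43 fell against parental cells in 2H1, 47C2 and 3A4, by log2 differences of -1.74, -0.80 and -0.37, each with an SE of 0.11 and adjusted p of 4.04e-09, 5.34e-05 and 0.0138 (limma). In 2H1 the parental level was 3.34 times that of the clone. Against 16F8 it fell in the same 3 clones, by -1.94, -1.0 and -0.57, and also in 17H5, by -0.48 with an adjusted p of 0.0134. At least 3 of 8 calls lower than parental were made for 11.3% of all tested probe sets. The call of 3A4 against parental was lost without replicate 1 of 3A4, at -0.29 with an adjusted p of 0.124, and without replicate 1 of parental, at -0.30 with an adjusted p of 0.113. The call of 17H5 against 16F8 was lost without replicate 2 of 17H5, at -0.45 with an adjusted p of 0.12, and without replicate 1 or 2 of 16F8, at -0.48 and -0.47 with adjusted p of 0.0673 and 0.0735.

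DKK1, the secreted antagonist of the LRP co-receptors, was bright in every clone. Probe set 204602_at gave 1343.1 and 1648 in 2C11, 2170.7 and 2014.4 in 2H1, 2488.3 and 2515.6 in 3A4, 1682.7 and 1438.4 in 8G12, 1369 and 1438 in 17H5, 2067.2 and 1949.7 in 47C2, 1860.7 and 1711.8 in 45G3, 1400.6 and 1234.1 in 16F8, and 1515.6 and 1700.2 in parental cells. Both arrays of 3A4, 2H1, 47C2 and 45G3 lay above both parental arrays, and those of 17H5 and 16F8 lay below them. Those of 2C11 and 8G12 overlapped parental cells.

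DKK1 rose against parental cells in 3A4, 2H1 and 47C2, by log2 differences of 0.64, 0.38 and 0.32, each with an SE of 0.11 and adjusted p of 0.00037, 0.0182 and 0.0481 (limma). Against 16F8 it rose in the same 3 clones, by 0.93, 0.67 and 0.61. At least 3 of 8 calls higher than parental were made for 13.2% of all tested probe sets. The call of 47C2 against parental was lost in 15 of 29 alternatives, among them leaving out either array of 2H1, 3A4, 17H5, 47C2 or parental, with log2 differences of 0.24 to 0.41 and adjusted p of up to 0.248. The call of 2H1 against parental was lost without replicate 1 of 2H1, at 0.33 with an adjusted p of 0.131, and without replicate 1 of parental, at 0.30 with an adjusted p of 0.145. The call of 47C2 against 16F8 was lost without replicate 1 of 47C2, at 0.57 with an adjusted p of 0.0625.

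DKK1 was thus called higher and RNF43 lower than parental in 2H1, 3A4 and 47C2, which carry 3 different mutations, and AXIN2 was called higher in these clones as in 4 others. Over the 9 clone means the 2 genes correlated at -0.596, as a description. The stretches just before the transcription starts of DKK1 and RNF43 are shown because both had calls in these clones, in opposite directions, and both are in the sequence table. They come from RefSeq on GRCh38.p14 and cover 250 bases each, DKK1 at chr10:52314031-52314280 on the plus strand and RNF43 at chr17:58417535-58417784 on the minus strand, before 1 of its 2 starts in the table. The capitals mark CTTTGA, 1 form of the core of the TCF and LEF binding motif, searched on both strands. Other forms, such as CTTTGT, were not searched or marked.
DKK1: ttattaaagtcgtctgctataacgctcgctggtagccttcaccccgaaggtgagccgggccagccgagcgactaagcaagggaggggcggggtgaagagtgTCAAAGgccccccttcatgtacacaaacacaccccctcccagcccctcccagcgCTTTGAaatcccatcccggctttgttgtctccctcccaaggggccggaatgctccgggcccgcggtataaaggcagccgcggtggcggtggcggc
RNF43: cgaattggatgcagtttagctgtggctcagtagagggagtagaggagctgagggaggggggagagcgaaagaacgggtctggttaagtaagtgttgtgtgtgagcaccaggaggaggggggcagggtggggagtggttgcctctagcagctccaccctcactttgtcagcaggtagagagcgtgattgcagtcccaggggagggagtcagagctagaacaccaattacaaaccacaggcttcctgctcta
The DKK1 window held CTTTGA once on each strand, with first bases at -149 and -95 relative to the start. The RNF43 window did not hold these letters. Of 35116 windows of this length, 11.2% held CTTTGA on either strand. The windows of LEF1, TCF7 and TCF7L2 and the other RNF43 window did not hold CTTTGA, so 1 of 9 windows of 5 member genes did. These counts leave out the other forms of the core. A match of letters is no evidence of binding. AXIN2, LGR5, ASCL2 and NKD1 were not matched to the table, and no MYC sequence was used here.

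**Figure D2:**
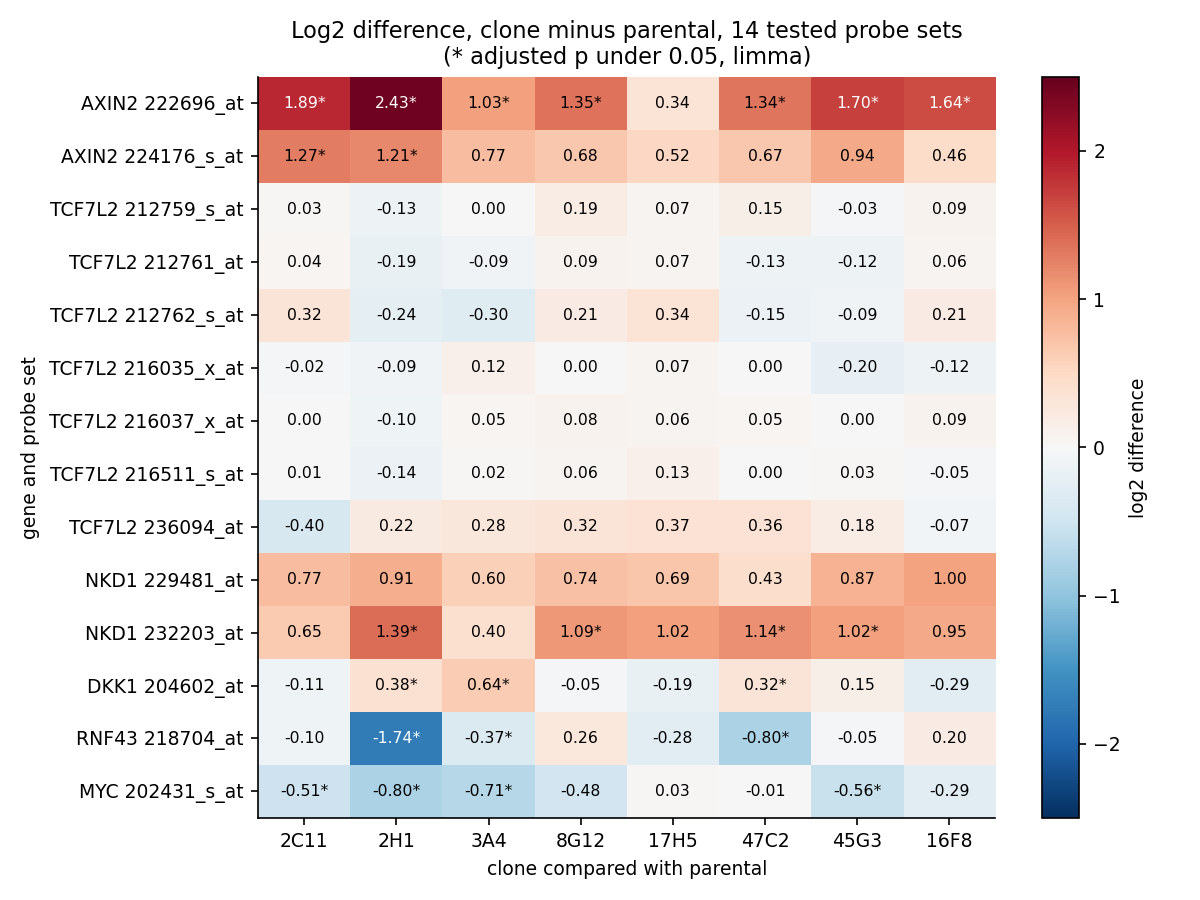
Log2 difference of each derived clone from parental cells (columns) for the 14 tested probe sets (rows), in colour and as numbers; a star marks an adjusted p under 0.05 by limma. AXIN2 222696_at reached 2.43 in 2H1 and RNF43 reached -1.74 in the same clone, while no TCF7L2 probe set was called.

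MYC, the transcription factor that drives growth and a classic beta-catenin target in colon cancer, was read by 1 probe set, 202431_s_at. Its signal was 613.3 and 747.1 in 2C11, 576.6 and 536.8 in 2H1, 505.3 and 693.1 in 3A4, 640.5 and 745.9 in 8G12, 1089.1 and 890.6 in 17H5, 947.6 and 979.3 in 47C2, 599.8 and 720.4 in 45G3, 898.2 and 700.5 in 16F8, and 913.5 and 1024.1 in parental cells. Parental cells, 17H5 and 47C2 overlapped at the top. The other 6 clones lay below both parental arrays.

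MYC fell against parental cells in 4 clones, by -0.80 in 2H1 (adjusted p = 0.00144), -0.71 in 3A4 (0.00288), -0.56 in 45G3 (0.018) and -0.51 in 2C11 (0.0304), each with an SE of 0.16 (limma, log2 scale). In 8G12 the difference was -0.48 with an adjusted p of 0.055. At least 4 of 8 calls lower than parental were made for 8.27% of all tested probe sets. Against 16F8 the fall in 2H1 passed the test, at -0.51 with an adjusted p of 0.0458, and no other mutant clone did. That call was lost in 10 of 29 alternatives, which included leaving out either array of 2H1 or of 47C2 or replicate 1 of 16F8, with values of -0.69 to -0.33 over all alternatives and an adjusted p of up to 0.334. Over the 9 clone means MYC and AXIN2 correlated at -0.715, a description over clones measured on shared arrays.

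Of the 4 MYC calls against parental, that in 2H1 was kept in all 29 alternatives. With the poly-A controls as a covariate the 45G3 call was lost, at -0.45 with an adjusted p of 0.115 (limma). Without the filter and without the variance trend the 2C11 call was lost, at -0.51 with adjusted p of 0.055 and 0.0719 (limma). On arrays with low poly-A controls alone the 2C11 call was also lost, at -0.45. The call in 3A4 was lost without its replicate 1, at -0.48 with an adjusted p of 0.0658. The call in 45G3 was lost without its replicate 1, at -0.42 with an adjusted p of 0.135, and without replicate 2 of parental, at -0.47 with an adjusted p of 0.115. The call in 2C11 was lost without its replicate 1, at -0.37 with an adjusted p of 0.216, and without replicate 1 or 2 of parental, at -0.60 and -0.43 with adjusted p of 0.052 and 0.171.

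**Figure D3:**
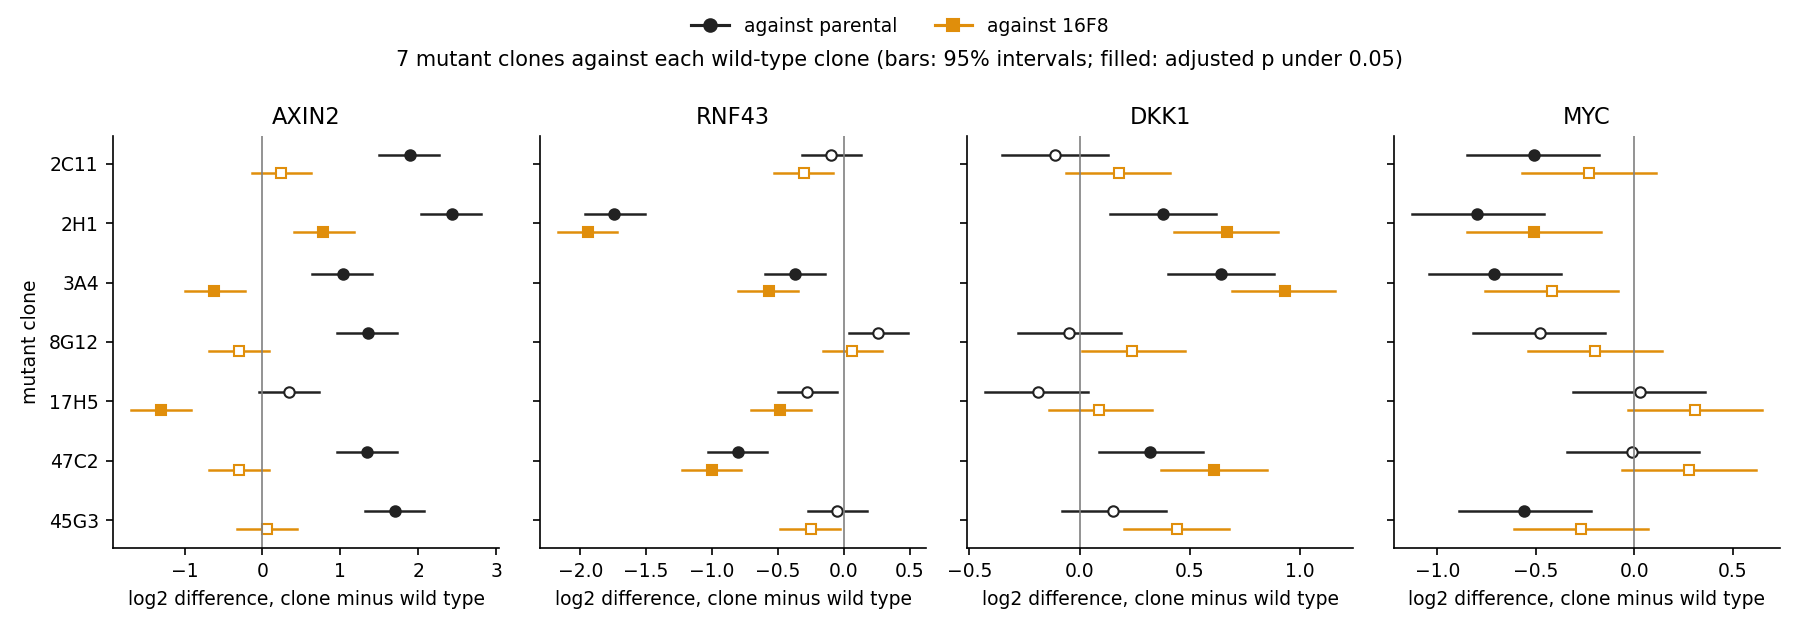
Log2 difference (x axis) of the 7 mutant clones (rows) from parental cells (black circles) and from 16F8 (orange squares) for AXIN2, RNF43, DKK1 and MYC; bars are 95% intervals from the limma fit and filled symbols have an adjusted p under 0.05. AXIN2 lay above 0 against parental in all 7 and on both sides of 0 against 16F8, while RNF43 and DKK1 kept their calls in 2H1, 3A4 and 47C2 against either wild-type clone.

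TCF7L2, the main TCF of the colon epithelium, was bright and had the smallest range of clone means among the probe sets that stand for the 6 tested genes, 0.31 on the log2 scale. All 7 of its probe sets were tested and lay above the median on all 18 arrays. The brightest, 216035_x_at, gave 2016.4 and 2222.7 in 2C11, 2062.3 and 1958.8 in 2H1, 2176.3 and 2477.1 in 3A4, 2223.7 and 2057.6 in 8G12, 2427.1 and 2074.4 in 17H5, 2270.2 and 2035.3 in 47C2, 2087.7 and 1670.3 in 45G3, 1880.1 and 2060.5 in 16F8, and 2069.7 and 2217.5 in parental cells. Both arrays of 2H1 and of 16F8 lay below both parental arrays, those of the other 6 clones overlapped them, and the log2 differences from parental ran from -0.20 to 0.12 with an SE of 0.12. None of the 7 probe sets was called in any clone against parental.

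Probe set 212762_s_at differed among the 9 clones in the F test, adjusted p = 0.0298. Its signal was 411.3 and 378 in 2C11, 263.5 and 271.3 in 2H1, 267.5 and 244.4 in 3A4, 301.4 and 446.2 in 8G12, 378.4 and 421.3 in 17H5, 280 and 288.1 in 47C2, 308.9 and 286.2 in 45G3, 454.8 and 294 in 16F8, and 332.9 and 299.7 in parental cells. It was called lower in 3A4 than in 16F8, at -0.51 with an adjusted p of 0.0488. That call was lost in 20 of 28 alternatives, and without replicate 1 of 16F8 the difference was -0.20 with an adjusted p of 0.523. The other 6 TCF7L2 probe sets did not pass the F test, and their correlations with 212762_s_at over the clone means ran from -0.398 to 0.886, so the probe sets did not agree on an order of the clones.

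LGR5, the R-spondin receptor that marks stem cells of the crypt base, ASCL2, a transcription factor of those cells, and LEF1, a TCF family member induced by Wnt signalling, were not tested. Their 7 probe sets lay below the array medians in nearly all arrays. LGR5 signals ran from 0.1 to 14.6, ASCL2 from 0.2 to 2.4 and LEF1 from 0.1 to 10.7. The single value above its array's median was the 14.6 of LGR5 probe set 213880_at in replicate 2 of 2H1, whose other array gave 3.7. The remaining 16 arrays gave 0.1 to 2.2 for that probe set, and the other LGR5 probe set gave 1.5 and 1.4 in 2H1. At these signals no order of the clones can be read. No detection calls were used, so these values do not show that the transcripts were absent.

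**Figure D4:**
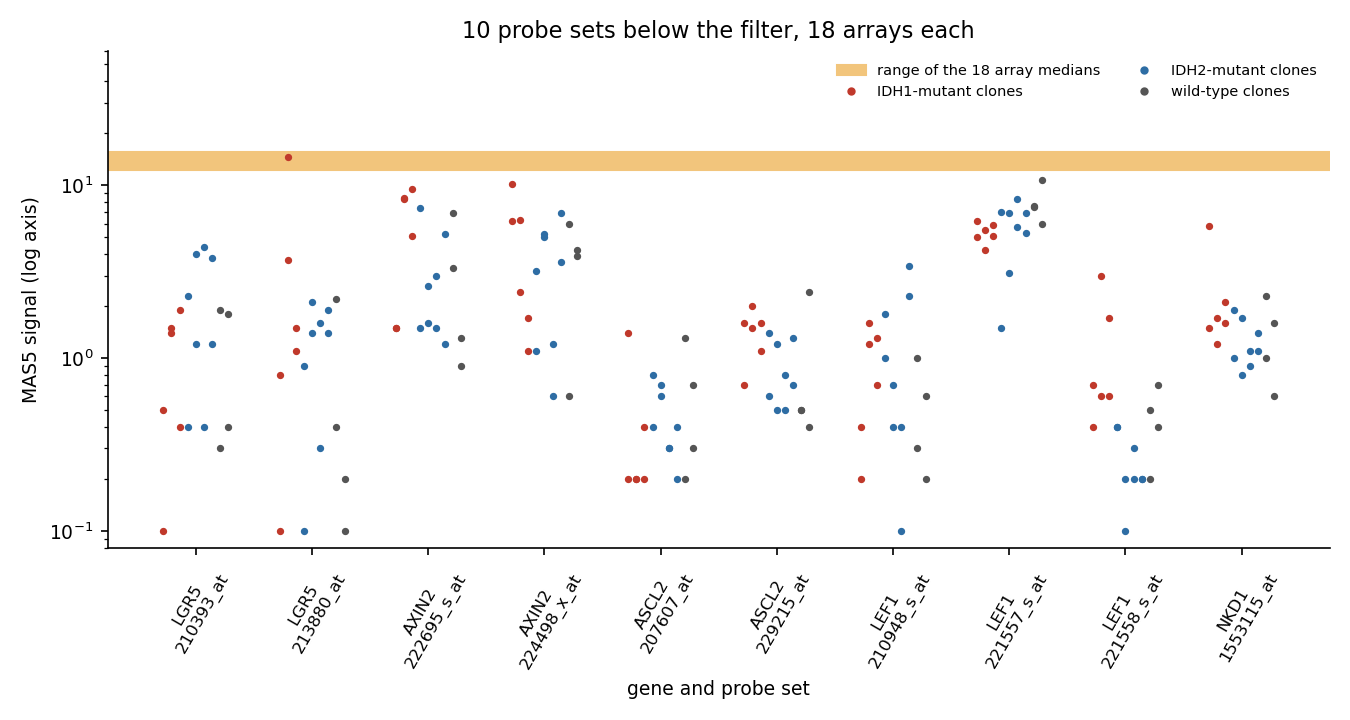
MAS5 signal (log y axis) of the 10 member probe sets below the filter (x axis) on 18 arrays, as points coloured by IDH1-mutant, IDH2-mutant and wild-type clones; the band is the range of the array medians, 12.3 to 15.6. A single point, LGR5 213880_at in 2H1 at 14.6, reached the band.

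Counted over the 8 clones against parental, 23 of 112 tests of member probe sets passed, 16 higher and 7 lower. The background was 20.2% of all such tests, with 10.8% higher and 9.45% lower. Of 14 probe sets each, 2H1 had 6 calls (background 25.9%), 3A4 and 47C2 had 4 (31.5% and 21.9%), 2C11 and 45G3 had 3 (20.5% and 23.9%), 8G12 had 2 (13.4%), 16F8 had 1 (16.4%) and 17H5 had 0 (8.38%). The members' shares lay on both sides of the background. In 17H5, where limma called none, 2 had an unadjusted p under 0.05, against 6946 of all 29070 tested probe sets. Without replicate 2 of parental the sum fell to 14. Against 16F8, 12 of 98 tests passed, 4 higher and 8 lower, with a background of 6.79%, or 3.2% higher and 3.59% lower. By clone these were 4 in 2H1 (background 12.3%), 4 in 3A4 (21.7%), 2 in 17H5 (5.77%) and 2 in 47C2 (4.38%). In 2C11, 8G12 and 45G3 limma called 0, where the backgrounds of such calls were 1.41%, 0.433% and 1.53%. An unadjusted p under 0.05 was found for 2, 1 and 2 members, against 3402, 1773 and 3668 of all 29070 tested probe sets. The median log2 difference over the 112 member tests was 0.07, against 0.02 over all probe sets.

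Clones of 1 genotype differed in members too. Between the 3 pairs of clones that carry the same mutation, 5 of 42 tests passed, against a background of 2.31% (1.08% higher and 1.24% lower). By pair there were 2 calls for 2H1 minus 2C11 (background 3.02%), 2 for 8G12 minus 17H5 (2.06%) and 1 for 47C2 minus 45G3 (1.86%). RNF43 was lower in 2H1 than in 2C11, both IDH1 R132H/+, by -1.64 (adjusted p = 3.93e-08), and lower in 47C2 than in 45G3, both IDH2 R172K/+, by -0.75 (adjusted p = 0.00108). In the IDH2 R140Q/+ pair, 8G12 exceeded 17H5 in AXIN2, by 1.01 (adjusted p = 0.00617), and in RNF43, by 0.54 (adjusted p = 0.0121). DKK1 was higher in 2H1 than in 2C11 by 0.49 (adjusted p = 0.0215, limma). Both 8G12 calls were lost without replicate 2 of 8G12, at 0.82 and 0.49 with adjusted p of 0.0716 and 0.0871, and without replicate 2 of 17H5, at 0.81 and 0.51 with adjusted p of 0.136 and 0.126. The DKK1 call was lost without replicate 1 of 2C11, at 0.34 with an adjusted p of 0.252, or without replicate 1 or 2 of 2H1, at 0.44 and 0.54 with adjusted p of 0.208 and 0.0766.

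The study asked how IDH1 and IDH2 mutations bear on the cells, and for that the clone is the replicate. None of the 14 member probe sets differed between the 7 mutant and the 2 wild-type clones by limma on clone means, where the background was 0% and 1 member had an unadjusted p under 0.05. For IDH1-mutant against wild-type clones the counts were 0 and 3, for IDH2-mutant against wild-type clones 0 and 0, both with a background of 0%, and for IDH1-mutant against IDH2-mutant clones 0 and 1, with a background of 0.00688%. The means over clones were 459 in mutant and 318 in wild-type clones for AXIN2 222696_at, a log2 difference of 0.62 ± 0.47 (SE), 95% interval -0.41 to 1.64. The 2 wild-type clones lay on either side of most mutant clones for this probe set, 16F8 at a mean of 483 and parental at 153.7. With parental left out the AXIN2 difference was -0.21, and with 16F8 left out it was 1.44.

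For the other members the mutant minus wild-type log2 difference was 0.22 ± 0.24 for NKD1, 0.31 ± 0.19 for DKK1, -0.54 ± 0.39 for RNF43, -0.29 ± 0.21 for MYC and 0.04 ± 0.09 for TCF7L2 (SE, 7 against 2 clones, adjusted p of 0.676 to 0.894 over the 6 genes, limma). The narrowest interval was that of TCF7L2, -0.14 to 0.23, and the RNF43 interval reached from -1.38 to 0.31. In the 3 IDH1-mutant clones MYC averaged 612, against 884 in the 2 wild-type clones, a log2 difference of -0.53 ± 0.19 with an adjusted p of 0.249. RNF43 averaged 282 in IDH1-mutant and 455 in wild-type clones, at -0.84 ± 0.42 with an adjusted p of 0.366.

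The rest of the pathway was followed in lists of genes known for each role, 1 probe set per gene. Secreted and feedback inhibitors had 9 of 20 genes tested, of which 2 to 5 rose against parental cells in each of the 8 clones and 0 fell, with list medians of -0.03 to 0.62 against medians of all genes of -0.02 to 0.04. Summed over the clones, 10.8% of all probe set tests rose and 9.45% fell. Here and for the lists below, such shares count every tested probe set, while the lists count 1 per gene, so the units differ. NOTUM, the deacylase that inactivates Wnt ligands and is itself a target, rose in 6 clones, most in 2H1 at 1.66, and was at -0.38 in 3A4 (adjusted p = 0.178). DACT1, a Dishevelled antagonist, rose in 6 clones and KREMEN1, a receptor for Dickkopf proteins, in 5. DKK3 was also called in 5, but it passed the filter through 2H1 and 3A4 alone, and its signal was 50.1 and 44.2 in 3A4 against 3.9 and 6.3 in parental cells, below the array medians, so no size is given.

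Other known targets of beta-catenin had 24 of 30 genes tested, of which 3 to 8 rose and 1 to 5 fell in each clone against parental, with list medians of -0.06 to 0.20. Over all tested probe sets, calls in either direction made up 8.38% in 17H5 to 31.5% in 3A4, so a range over clones has no single background. These shares join rises and falls, while the counts of this list and the lists below are split by direction. BMP4 and CDC25A each rose in 7 clones, all except 17H5, where the differences were 0.21 and 0.37. BMP4 gave 334.5 or more on every array of those 7 clones and 184.8 and 178.4 in 17H5, against 181.4 and 135.9 in parental cells. PLAUR, the urokinase receptor, fell in all 8 clones, by -0.70 to -1.24. The list therefore moved in both directions.

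Wnt ligands and their secretion machinery had 7 of 21 genes tested, with 1 to 2 rising in each clone and 0 falling outside 2C11 and 3A4, where 1 and 2 fell. WNT10B rose in 7 clones, by up to 1.03 in 16F8, and WNT9A in 4, by up to 1.6 in 3A4. Of 24 receptor genes, 17 were tested, with 1 to 5 rising in each clone, and 5 falling in 3A4, 2 in 47C2, 1 in 17H5 and 0 in the other 5 clones. For both lists the share of all tested probe sets called in either direction was 8.38% to 31.5% by clone. LGR4, the R-spondin receptor related to LGR5, rose in 7 clones, by 0.76 to 1.13, and was at 0.58 in 17H5 (adjusted p = 0.13). ROR1, a Wnt5a receptor, rose in 6 clones, by up to 2.20 in 2H1.

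Beta-catenin and its destruction complex had 12 of 13 genes tested, with 0 or 1 rising and 0 to 2 falling in each clone. TNKS, a tankyrase that marks AXIN for degradation, fell in 6 clones, by up to -0.55 in 45G3. TNKS2, the other tankyrase of the list, rose in 2 clones, by up to 0.54. APC rose in 3 clones, by up to 0.58 in 2C11. Nuclear partners had 15 of 17 tested, with 0 to 5 rising and 0 to 2 falling, and TLE1, a corepressor of TCF proteins, rose in 5 clones, by up to 1.16 in 3A4. Of all tested probe sets, 8.38% to 31.5% were called in either direction, depending on the clone.

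Other intestinal stem cell markers had 13 of 19 genes tested, with 1 to 4 rising and 0 to 3 falling in each clone. By clone, 8.38% to 31.5% of all tested probe sets were called against parental in either direction. CDCA7 rose in all 8 clones by 0.33 to 0.96 and RGMB fell in 6 by up to -0.82 in 2H1. TNFRSF19 was called higher in 6, with 37.1 and 20.5 in 2H1 against 3.8 and 4.7 in parental cells, where it lay below the array medians. Of 25 differentiation genes only 5 were tested. CA2, a carbonic anhydrase, rose in all 8 clones by 0.51 to 1.48, KLF4 fell in 7, by up to -1.66 in 16F8, and KRT20 fell in 5, lowest in 47C2 at 9.9 and 10.2, below the array medians, against 44.9 and 37.5 in parental cells. KLF4 was at -0.35 in 17H5 (adjusted p = 0.0779). Of 7 tested epithelial markers, CDH1 fell in 7 clones, by up to -1.78 in 3A4, ELF3 in 6, by up to -1.75 in 3A4, and EPCAM in 4, by up to -0.78 in 2H1. KRT8 rose in 2H1 and 3A4, by 0.38 in each, and CDX2, KRT18 and KRT19 were called in no clone. Whether these markers bear on the members was not tested. No gene named from these lists differed between mutant and wild-type clones by limma on clone means.

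**Figure D5:**
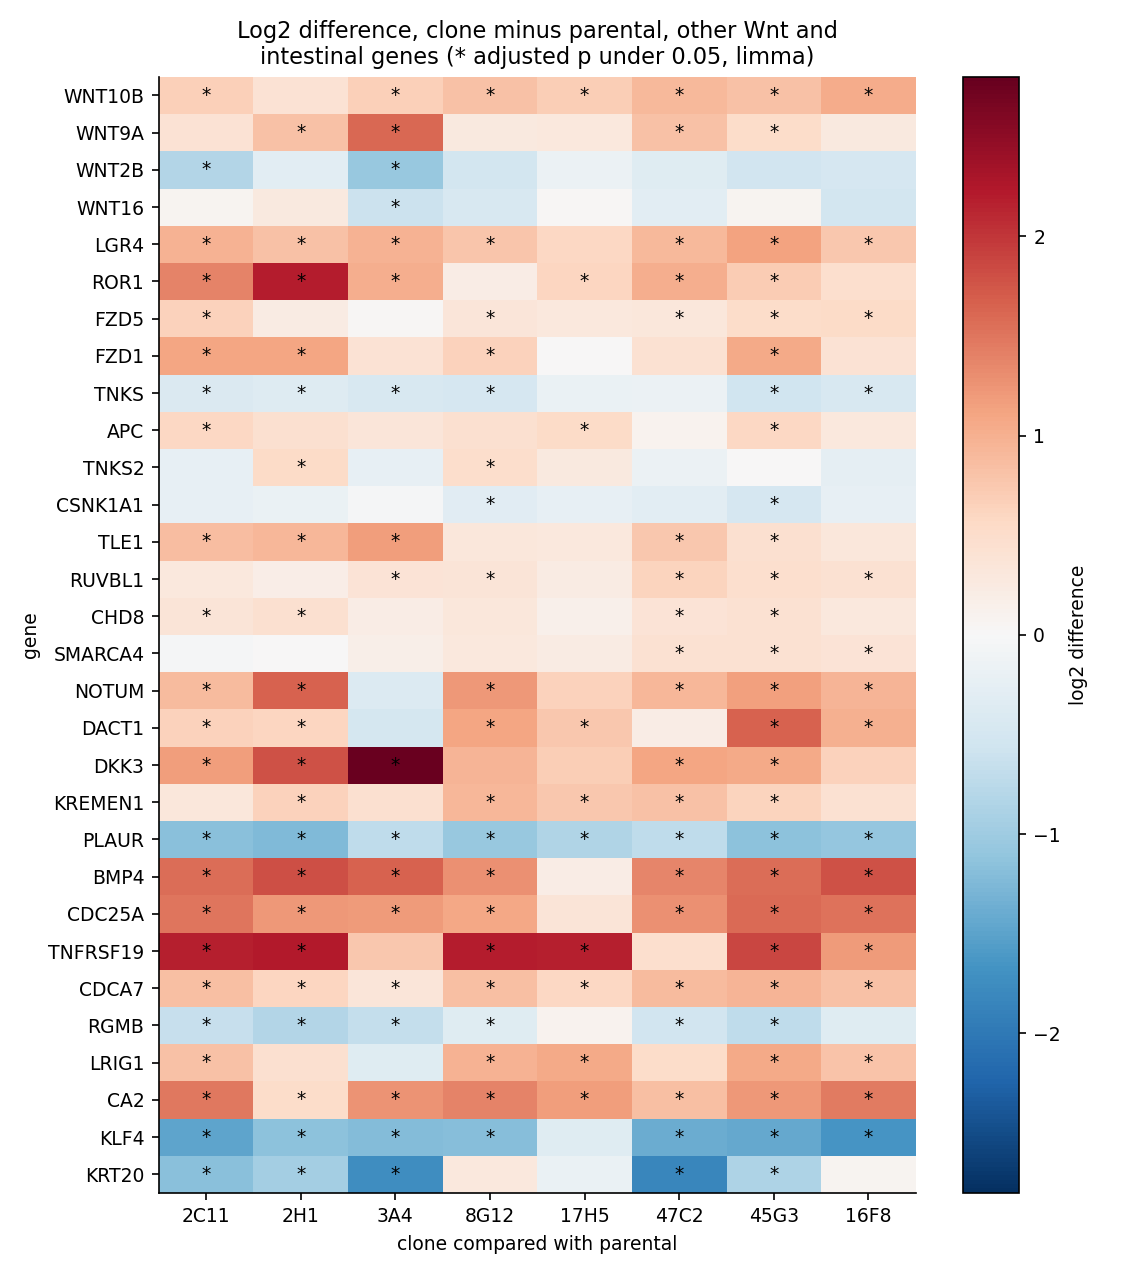
Log2 difference of each derived clone (columns) from parental cells for the named genes of the other Wnt and intestinal lists (rows); colour gives the difference and a star an adjusted p under 0.05 by limma. CDCA7 and CA2 were higher and PLAUR lower in all 8 clones, and BMP4, CDC25A and KLF4 were called in all except 17H5.

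The genes whose clone means were most like those of a member were found by Pearson's r over the 9 clones among 12540 genes. For AXIN2 they were IFT25 (0.982), KBTBD6 (0.978) and CDKN3 (0.973). For DKK1 they were EHD1 (0.977), CCDC88A (0.973) and GRIK2 (0.967), for RNF43 MAPK13 (0.968), MAL2 (0.951) and ALG14 (0.929), and for MYC SAXO4 (0.968), MID1IP1 (0.962) and SEPSECS (0.951). The highest of so many correlations over 9 points is high by selection, and the clones share arrays and scaling, so these are descriptions. Between members the highest was that of AXIN2 and NKD1, at 0.76.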

How the data were processed

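Total RNA for 18 arrays was amplified, labelled with biotin and hybridised to Affymetrix arrays, per the labels' protocols. The deposited values are intensity signals made with MAS5, per the submitters' processing notes. Its version is not given in the sources used here. Probe sets were named from GEO's platform annotation, where 41091 carried 1 gene symbol, 1801 several and 11721 none, and 62 were controls. Log2 was taken after adding 2.2, the 25th percentile of the values.

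R 4.3.3 with limma 3.58.1 fitted 1 mean per clone on 18 arrays (9 residual degrees of freedom), and genotypes on 9 clone means (7 or 6), with a variance trend and two-sided p-values adjusted by Benjamini-Hochberg over all 29070 tested probe sets (threshold 0.05). The tests were checked on simulated data. The main fit did not pair arrays by replicate number. Over 36 pairs of clones, deviations of arrays from their clone means correlated at -0.375 to 0.344, above 0.1 in 3 pairs. Alternatives covered offsets, filters, normalization, probe sets, variance models, spike-in controls and left-out arrays or clones. The members, lists and tests were chosen with earlier results of these data known. Genes named are every member, up to 4 genes per list called against parental in the most clones, and the 3 most alike genes of members passing the F test, with the brightest tested probe set standing for a gene. Figures used Python 3.11.15 and matplotlib 3.10.9. Arrays give no counts, and 2 arrays per clone limit the precision.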

Additional observations from a re-analysis of the deposited data

Results flagged for a closer look

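The 5 differences between clones that carry the same mutation passed the test, and each is given as a value with no explanation. RNF43 differed in all 3 pairs, by -1.64 for 2H1 minus 2C11, 0.54 for 8G12 minus 17H5 and -0.75 for 47C2 minus 45G3 (log2, adjusted p = 3.93e-08, 0.0121 and 0.00108, limma). DKK1 differed by 0.49 for 2H1 minus 2C11 (adjusted p = 0.0215), and AXIN2 by 1.01 for 8G12 minus 17H5 (adjusted p = 0.00617). The RNF43 calls of 2H1 and 47C2 held in all 29 alternatives, while the other 3 were lost in 5, 3 and 3 of them (DKK1, AXIN2 and RNF43 of 8G12). No clone stood apart from the rest of its group by Dixon's criterion in the 12 groups examined, 6 genes in the mutant and in the IDH2-mutant clones.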

How the results depend on the processing

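For the probe set that stands for each gene, the 17 log2 differences from parental that were called were recomputed under 29 alternatives: 461 values kept their call and direction, 32 missed the threshold and 0 reversed. Of 11 called against 16F8, 298 of 319 kept it, and of 5 between clones of 1 genotype, 134 of 145. The 7 calls of other probe sets (4 of NKD1, 2 of AXIN2 and 1 of TCF7L2), recomputed after seeing the data, kept 131 of 190 values, 59 missed the threshold and 0 reversed. The 7 AXIN2 calls against parental were kept in every one. The count of members differing among the clones was 8 with the poly-A controls as a covariate, and 4 to 6 with 1 array left out. Calls against parental numbered 14 to 23 with 1 array left out, those against 16F8 8 to 12, and those between clones of 1 genotype 3 to 6. On arrays with low poly-A controls alone, an alternative chosen after seeing the data, the last count was 2. With the replicate number as a block the counts were 5, 21, 11 and 5 in that order, and the block ended the calls of DKK1 in 47C2 (0.32, adjusted p = 0.0568) and NKD1 in 8G12 (1.09, 0.0541) against parental and of TCF7L2 212762_s_at in 3A4 against 16F8 (-0.51, 0.056). The 4 genotype comparisons gave 0 calls in all 38 alternatives. Mutant minus wild-type differences reversed for AXIN2, to -0.21, and NKD1, to -0.28, with parental left out, and for TCF7L2, to -0.02, with 16F8 left out, the highest without 1 clone being 1.44, 0.72 and 0.1; the cause was not tested. Without parental or 16F8 the other wild-type clone stood alone and was assumed to vary like the mutant clones. LGR5, ASCL2 and LEF1 lay too low for a test.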
